A study of Mus musculus with 55 samples.

Results

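Notch signalling was followed through 10 genes of the pathway, Jag1, Jag2, Dll4, Notch1, Notch2, Notch3, Hes1, Hey1, Heyl and Nrarp, taken by their symbols from the count tables of a mouse liver series. They were 10 of the 34490 symbols that both sequencing batches listed, and each had a count in at least 1 library of each batch. In this pathway, a ligand on the surface of 1 cell (Jag1, Jag2 or Dll4) binds a receptor on its neighbour (Notch1, Notch2 or Notch3), the receptor is cut, and its freed inner part enters the nucleus and joins the DNA-binding protein RBPJ to switch on genes such as Hes1, Hey1, Heyl and Nrarp. In the liver, Notch signalling is best known for the forming of bile ducts, where Jag1 in the portal tissue signals to Notch2 on the cells that become cholangiocytes, the cells that line the ducts. In liver endothelium, Dll4 and Notch1 act in the making and patterning of vessels.

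The libraries came from whole livers of adult C57BL/6 mice with floxed alleles of both Rnf43 and Znrf3, which encode ubiquitin ligases that remove WNT receptors from the cell surface. In R&Z del mice, labelled KO, the exons that encode the RING domains of both genes had been deleted in hepatocytes, with tamoxifen and AlbCre-ERT2 or with an AAV8-TBG-Cre virus, whereas R&Z flox mice, labelled WT, kept the floxed alleles and received vehicle or an AAV8-null virus. Undamaged livers were taken 1, 3 and 7 months after deletion (1M, 3M and 7M), livers with chronic damage 4, 50 and 170 days after the last of repeated doses of the hepatotoxin CCl4 (CD), and regenerating livers 7 and 21 days after partial hepatectomy (PHx). The study's results describe R&Z flox mice under the same CCl4 regimen, but its methods state that control littermates without recombination were given the oil vehicle alone. R&Z flox livers with CD are called damaged here by their labels. In the CCl4 experiment, tamoxifen was given again to keep up the deletion. All mice with CD were of the first batch and had received tamoxifen or vehicle, and all mice at 1M and after PHx were of the second batch and had received a virus, as had those of this batch at 3M but not at 7M, so that damage by CCl4 and PHx could not be compared within a batch. The first batch had R&Z flox and R&Z del libraries for 3M (2 and 1), 7M (2 and 2), CD 4d (2 and 2), CD 50d (1 and 2) and CD 170d (2 and 2), and the second batch for 1M (4 and 4), 3M (3 and 1), 7M (3 and 3), PHx 7d (3 and 3) and PHx 21d (3 and 3).

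These 48 libraries held between 11721687 and 32168223 counts on genes, and 5 further libraries, whose labels do not give 1 group, entered no comparison. Levels are given as CPM, a gene's counts scaled to the total count of its library, and a count of 0 in a library allows up to 0.0971 to 0.132 CPM in the first batch and 0.0933 to 0.256 CPM in the second, from 3 counts of its total and for counting error only. The whole-gene counts of the targeted genes do not show which exons were read and so cannot check the deletion. At CD 4d they were higher, not lower, in R&Z del livers, with Rnf43 at 33.0 and 36.4 CPM against 10.1 and 4.98 CPM in R&Z flox livers, and Znrf3 at 24.0 and 25.3 against 4.86 and 4.50 CPM. The summed CPM of the WNT targets Glul, Axin2 and Lgr5 was higher in every R&Z del library than in every R&Z flox library of the same batch and time point. At CD 4d, the sums were 77.6 and 70.1 CPM in R&Z del and 24.8 and 60.9 CPM in R&Z flox livers. Markers of hepatocytes such as Alb and Ttr were present in all libraries, and their summed level at CD 4d was 74060 to 91106 CPM in R&Z del and 92692 to 95330 CPM in R&Z flox livers. No label states that the libraries of a group are separate mice, and p-values measure the spread between these libraries.

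Of the genes described here, 7 had an entry in RefSeq's promoter table (build GRCm38.p6, the mm10 assembly), with none for Hes1, Hey1 and Heyl. The 250 bases before the annotated start are shown for the 3 genes with an entry that rose in R&Z del livers after CCl4, as the sequences nearest to the start of the transcripts that were counted. Jag1 lies on chromosome 2 at 137081451 to 137116520 on the reverse strand, and its window is chr2:137116521-137116770. Notch1 lies on the same chromosome at 26457902 to 26503822, also on the reverse strand, with the window chr2:26503823-26504072. Nrarp lies at 25180758 to 25183339 of chromosome 2 on the forward strand, with the window chr2:25180508-25180757. Each line runs 5′ to 3′ on the strand of the gene, and capitals mark matches to CACGTG or CACGCG, the letters that HES and HEY proteins are known to bind, on either strand.
Jag1: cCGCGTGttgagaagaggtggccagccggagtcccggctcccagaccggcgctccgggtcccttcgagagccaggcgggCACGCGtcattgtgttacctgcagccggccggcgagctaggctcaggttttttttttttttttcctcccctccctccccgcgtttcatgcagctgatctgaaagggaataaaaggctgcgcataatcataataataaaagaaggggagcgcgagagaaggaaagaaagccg
Notch1: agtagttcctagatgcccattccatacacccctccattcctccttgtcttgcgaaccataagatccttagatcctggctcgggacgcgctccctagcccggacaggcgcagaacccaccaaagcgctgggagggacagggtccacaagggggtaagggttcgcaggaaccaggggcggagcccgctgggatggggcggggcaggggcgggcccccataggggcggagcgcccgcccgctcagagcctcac
Nrarp: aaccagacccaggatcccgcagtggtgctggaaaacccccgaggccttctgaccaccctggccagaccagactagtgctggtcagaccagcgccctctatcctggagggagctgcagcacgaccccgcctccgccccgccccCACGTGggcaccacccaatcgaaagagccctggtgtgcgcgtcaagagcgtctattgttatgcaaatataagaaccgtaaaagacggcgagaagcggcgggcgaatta

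The RBPJ letters GTGGGAA were found on neither strand in any of the 7 windows, against 5.42% of the 32851 windows in the table. The E-box letters CACGTG stood in the window of Nrarp alone, 108 bases before the start (6.02% of all windows), and CACGCG stood in those of Jag1 (2 places), Dll4 and Notch2 (7.62% of all windows). The WNT-related TCF/LEF letters CTTTGAA and CTTTGAT were found in none of the 7, against 4.46% and 3.21% of all windows. These are matches of letters only, and no binding was measured.

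Levels between genes were compared per kilobase of annotated exon length, in undamaged R&Z flox livers. In the first batch, Hes1, a transcriptional repressor, stood highest at 10.8 ± 9.96 CPM per kb (SD, n = 4), followed by the receptor Notch2 (0.758 ± 0.0614), the endothelial ligand Dll4 (0.627 ± 0.225), Notch1 (0.344 ± 0.164), Nrarp, a feedback inhibitor that lowers the freed receptor (0.307 ± 0.101), the repressor Heyl (0.258 ± 0.105), the ligand Jag1 (0.161 ± 0.0666), the repressor Hey1 (0.123 ± 0.0705) and Notch3, a receptor of mural cells (0.0459 ± 0.0123). The ligand Jag2 had no count in any of these 4 libraries. Hes1 and Notch2 were apart in the means but the SD of Hes1 was nearly as large as its mean, since 1 female 7M library, whose title names another group, held 44.1 CPM and the other three 7.36 to 14.4 CPM. The steps from Notch2 to Dll4, and each step from Notch1 down to Hey1, were smaller than the larger SD of the genes compared.

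In the second batch the order began in the same way, with Hes1 at 9.85 ± 6.23 CPM per kb (SD, n = 10), Notch2 at 2.68 ± 0.426, Notch1 at 2.29 ± 1.52, Dll4 at 1.32 ± 1.20 and Jag1 at 0.570 ± 0.288. Below Hes1, each of these steps was smaller than the larger SD. The receptors were read more in this batch, with Notch1 at 21.7 CPM against 3.27 CPM in the first and Notch2 at 28.1 against 7.96 CPM. Low genes were instead often missing altogether. Over the 30 libraries of the second batch, Jag2, Hey1 and Nrarp were at 0 in 26 each, Heyl in 17, Notch3 in 12 and Dll4 in 10. In the 18 libraries of the first batch, only Jag2 (9 libraries) and Notch3 (1 library) were ever at 0. Batches are therefore kept apart below, except in the undamaged fit, which had a term for batch.

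A comparison counted as passed at a Benjamini-Hochberg adjusted p under 0.1 over all genes tested in edgeR's quasi-likelihood test, together with an absolute log2 fold change over 1. Folds of these fits are on the log2 scale after TMM scaling, which weights libraries by their composition. In the fit of CCl4-treated livers, the TMM factors at CD 4d were 1.27 and 1.42 for R&Z del and 0.930 and 0.955 for R&Z flox livers. Fitted folds between the genotypes at CD 4d are thus lower than ratios of plain CPM.

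At CD 4d, Jag1 and Heyl rose in R&Z del against R&Z flox livers, 2 of the 6 genes tested, and Heyl depended on single libraries. Jag1, Notch1, Hes1, Heyl and Nrarp rose in R&Z del livers against undamaged livers of that genotype, and Hey1 passed as higher too. Hey1 and Nrarp were tested only because of damaged libraries. None of the genes tested passed in R&Z flox livers against their undamaged controls. The undamaged level was the mean of the 3M and 7M groups of the first batch, which held no 1M library. The study places CD 4d between 1M and 3M after deletion. Damage and time after deletion thus cannot be told apart in these comparisons, or in the difference between the damage effects. In plain CPM, both R&Z del libraries at CD 4d lay above both R&Z flox libraries for 7 of the 10 genes (Jag1, Jag2, Notch1, Notch2, Hes1, Hey1 and Heyl), where 55.3% of the 20371 genes with a count did so, a share near that of the 10 genes.

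**Figure D1:**
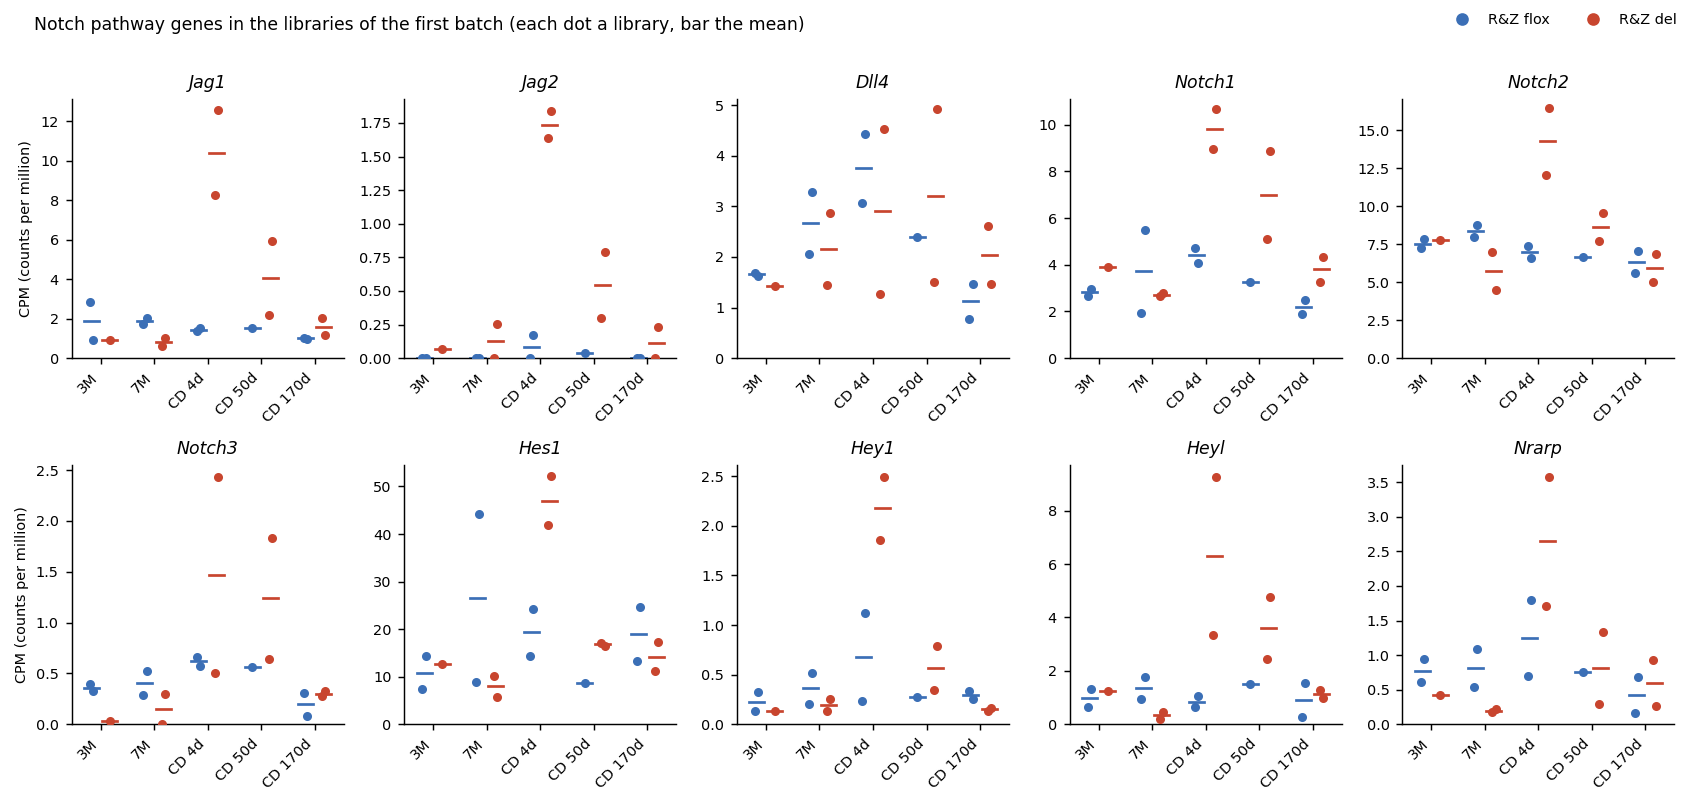
CPM of each gene (linear axis from 0) in the libraries of the first batch by time point, with each dot a library and each bar the mean of a group. Jag1, Jag2, Notch1, Notch2, Hes1, Hey1 and Heyl were higher in both R&Z del libraries at CD 4d than in both R&Z flox libraries at that time, and R&Z del levels at CD 170d were back among those of the other groups.

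Among the ligands, Jag1 stood at 8.25 and 12.5 CPM in R&Z del livers at CD 4d. It was at 1.37 and 1.52 CPM in R&Z flox livers at that time, at 0.609, 1.03 and 0.906 CPM in undamaged R&Z del livers and at 0.938 to 2.82 CPM in undamaged R&Z flox livers of the batch. The damaged R&Z del livers were thus above all others, with no overlap. Between the genotypes, Jag1 differed by 2.34 on the log2 scale (SE 0.44, adjusted p = 0.00966 in edgeR's quasi-likelihood test), and it passed with each library left out in turn, with adjusted p of at most 0.0854 over all alternatives.

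Jag2, a second Jagged ligand, was read with 45 and 56 counts in R&Z del livers at CD 4d (1.64 and 1.84 CPM) and with 0 and 5 counts in R&Z flox livers (0 and 0.169 CPM). It had no count in the 4 undamaged R&Z flox libraries and 0, 0.0647 and 0.258 CPM in the 3 undamaged R&Z del libraries. The 2 damaged R&Z del libraries were the highest of the batch, but Jag2 was below the filter on low counts and was not tested in the main fits. Dll4 showed no such order, with 1.27 and 4.53 CPM in R&Z del and 3.06 and 4.44 CPM in R&Z flox livers. Its log2 fold change was -0.89 with an interval from -2.30 to 0.52 (95%).

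Among the receptors, Notch1 stood at 8.94 and 10.7 CPM in R&Z del livers at CD 4d, and at 4.73 and 4.06 CPM in R&Z flox livers. Undamaged livers of the batch held 1.94 to 5.50 CPM in R&Z flox and 2.65 to 3.92 CPM in R&Z del mice, so that only the damaged R&Z del livers lay beyond the undamaged range. Notch2, the main receptor of bile duct development, was at 12.1 and 16.5 CPM in R&Z del and 7.36 and 6.57 CPM in R&Z flox livers. Neither receptor passed between genotypes, with log2 fold changes of 0.66 (95% interval 0.02 to 1.3, adjusted p = 0.132) for Notch1 and 0.53 (-0.00 to 1.07, adjusted p = 0.145) for Notch2 in edgeR's quasi-likelihood test. Notch3 was at 0.509 and 2.43 CPM in R&Z del and 0.666 and 0.576 CPM in R&Z flox livers, overlapping and too low to be tested.

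Among the target genes, Hes1 stood at 41.8 and 52.2 CPM in R&Z del livers at CD 4d and at 14.4 and 24.2 CPM in R&Z flox livers. The genotypes did not overlap at this time, but the female undamaged R&Z flox library at 44.1 CPM lay between the damaged R&Z del libraries. Its log2 fold change between genotypes was 0.79 (95% interval 0.02 to 1.57) and did not pass in edgeR's quasi-likelihood test (adjusted p = 0.135). Heyl was at 3.34 and 9.26 CPM in R&Z del against 0.633 and 1.05 CPM in R&Z flox livers, with the damaged R&Z del libraries the only undamaged or 4-day libraries of the batch above 1.77 CPM. It rose by 2.38 on the log2 scale (SE 0.72), with an adjusted p of 0.0483 in edgeR's quasi-likelihood test. Heyl no longer passed without replicate 2 of R&Z del (1.58, adjusted p = 0.267), replicate 1 of R&Z flox (2.07, 0.243) or replicate 2 of R&Z flox (2.75, 0.139), each at CD 4d.

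Hey1 was at 1.85 and 2.5 CPM in R&Z del and 0.233 and 1.12 CPM in R&Z flox livers at CD 4d, and Nrarp at 1.71 and 3.58 against 0.699 and 1.79 CPM. Hey1 did not overlap between the genotypes and Nrarp did, and neither was tested between genotypes. In all, 2 of the 6 genes tested rose in R&Z del against R&Z flox livers, where 15.2% of the 11358 genes tested passed and 10.3% passed as higher. The median log2 fold change of the 6 was 0.73, against 0.06 over all genes tested. For all 10 genes, replicate 2 of R&Z del held more CPM than replicate 1, but the share of all genes that did so was not computed.

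Against undamaged R&Z del livers, 9 of the 10 genes, all but Dll4, were higher in both R&Z del libraries at CD 4d than in the 3 undamaged ones, where 50% of the 20527 genes with a count were. In edgeR's quasi-likelihood test, 6 of the 8 genes tested passed as higher, where 31.4% of the 12608 genes passed and 20.2% passed as higher. Hey1, 1 of the 6, exceeded 1 CPM in only 3 libraries of the fit, both R&Z del libraries and 1 R&Z flox library at CD 4d, and is not counted as support. Of the other 7 genes tested, 5 rose, among them Nrarp, which also reached the filter only with damaged libraries. Hes1 rose by 2.65 on the log2 scale (SE 0.51, adjusted p = 0.00358), from 5.84, 10.2 and 12.8 CPM in undamaged livers. Jag1 rose by 2.99 (SE 0.61, adjusted p = 0.00476). Notch1 rose by 1.63 (SE 0.34, adjusted p = 0.00486). Over the alternatives, the fold ran from 1.63 to 2.92 for Hes1, 2.79 to 3.21 for Jag1 and 1.01 to 1.69 for Notch1. Each gene passed in all of them. These folds are adjusted for sex, and the only undamaged R&Z del library of this batch at 3M was female. Among the groups of this fit, only R&Z flox at 7M held both sexes, so that the term for sex came from its 2 libraries. The female library of that pair held 44.1 CPM of Hes1 and 5.50 CPM of Notch1, and the male library 8.86 and 1.94 CPM. The size of the fitted folds thus depends on that pair. Notch2, in contrast, had a log2 fold change of 0.44 with an interval from -0.27 to 1.15, and Dll4 one of 0.33 with an interval from -1.24 to 1.90.

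Hey1 had a fitted difference of 3.69 on the log2 scale (SE 0.95, adjusted p = 0.0134 in edgeR's quasi-likelihood test), from 0.131, 0.258 and 0.129 CPM, but it passed the filter on low counts only through damaged libraries, and the value is given as a description. Heyl rose by 2.96 (SE 0.86, adjusted p = 0.0227), from 0.218, 0.472 and 1.26 CPM. Nrarp rose by 2.97 (SE 1.01, adjusted p = 0.0406), from 0.174, 0.215 and 0.421 CPM. It reached at most 1.08 CPM in undamaged libraries of the batch and was not tested in the undamaged fit. Without replicate 2 of R&Z del at CD 4d, 3 genes passed (Jag1, Notch1 and Hes1), Heyl (adjusted p = 0.129) and Nrarp (adjusted p = 0.153) did not and Hey1 was not tested, whereas without replicate 1 of R&Z del 5 genes passed and Hey1 was again not tested.

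In R&Z flox livers, 0 of the 8 genes passed at CD 4d against undamaged livers in edgeR's quasi-likelihood test, where 5.09% of the genes tested did. This is an effect of damage only if these mice received CCl4, on which the study's results and methods differ. Notch1 was the 1 gene at an unadjusted p under 0.05 (log2 fold change 0.78, adjusted p = 0.14), and the likelihood ratio test and DESeq2 passed 0 of them. Jag1 had a log2 fold change of -0.43 with an interval from -1.50 to 0.64, and Hes1 one of 0.83 after the term for sex, with an interval from -0.05 to 1.71. In plain CPM, both damaged R&Z flox libraries lay above all 4 undamaged ones for 1 of the 10 genes, Notch3, where 12.9% of the 19716 genes with a count did so.

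The difference between these damage effects was tested itself, as an interaction in the fit of the first batch. The effect was larger in R&Z del livers for 3 of the 8 genes, where 17.2% of the genes tested differed and 9.83% differed towards R&Z del. These were Jag1, with a difference of 3.42 on the log2 scale (SE 0.70, adjusted p = 0.0142 in edgeR's quasi-likelihood test), Heyl with 3.30 (SE 0.98, adjusted p = 0.0489) and Hes1 with 1.82 (SE 0.57, adjusted p = 0.0568). Jag1 passed with each library of the contrast left out in turn. Hes1 no longer passed without replicate 5 of R&Z flox at 7M (0.80, adjusted p = 0.405) or replicate 4 of R&Z del at 3M (1.08, 0.283), which are the female mice of this fit and whose titles name other groups than the time points of their labels, by which they were grouped, or without a term for sex (1.48, 0.204), nor without replicate 2 of R&Z del (1.78, 0.147) or replicate 1 of R&Z flox (1.52, 0.198) at CD 4d. Heyl was lost without replicate 2 of R&Z del (2.54, 0.190) or replicate 1 (3.01, 0.166) or 2 (3.68, 0.102) of R&Z flox at CD 4d. For Notch1 the difference was 0.84 with an interval from 0.02 to 1.66 and did not pass (adjusted p = 0.148).

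**Figure D2:**
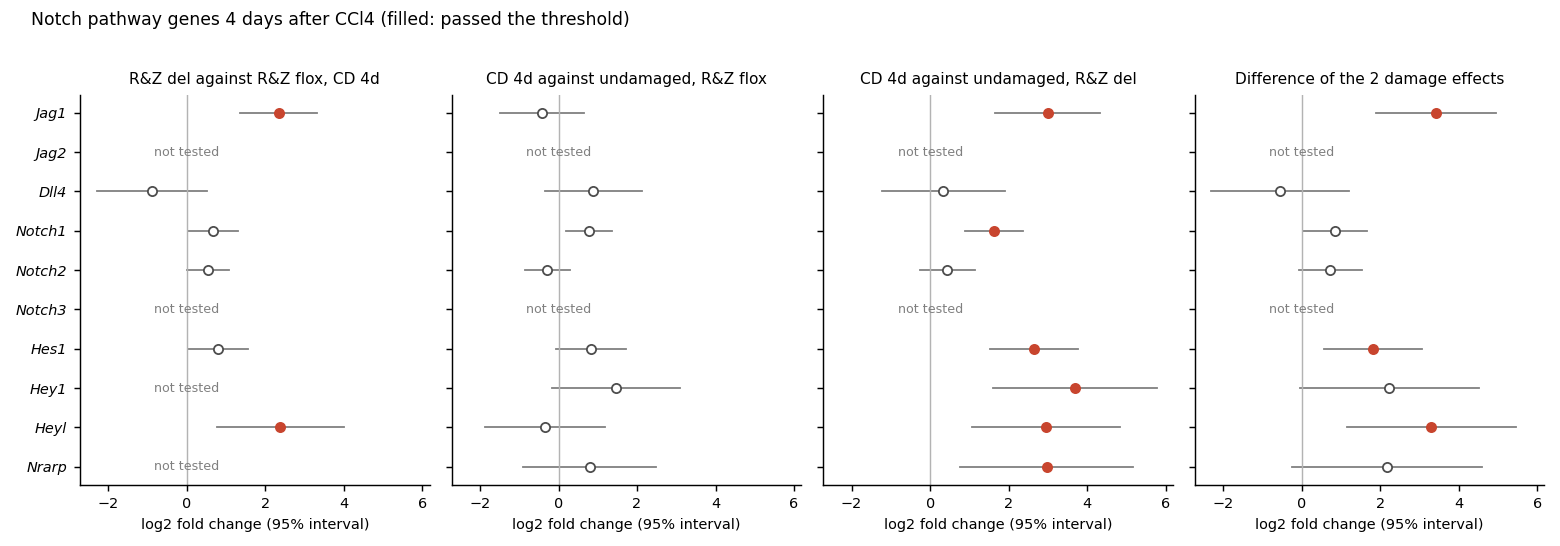
Log2 fold changes with 95% intervals (horizontal axes) of each gene at CD 4d in edgeR's quasi-likelihood fits, with filled points for genes past the threshold. The panels give R&Z del against R&Z flox, damage against no damage in each genotype, and the difference of the damage effects, and filled points number 2, 0, 6 (Hey1 included) and 3.

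Markers of other liver cell types moved in the same libraries. The summed CPM of 10 cholangiocyte markers was 3578 and 6399 in R&Z del livers at CD 4d, against 85.6 and 156 in R&Z flox livers and 64.7 to 160 in undamaged livers of the batch. All 7 of these markers that were tested rose between genotypes, among them Epcam (log2 fold change 6.56), Spp1 (4.94) and Krt19 (4.56), and each of the 10 had counts in both libraries. The summed CPM of 10 mesenchymal and mural markers was 196 and 493 against 76.2 and 112, and 3 of the 9 tested rose, Col1a1, Pdgfra and Rgs5. The 10 endothelial markers summed to 161 and 374 against 296 and 315 CPM, with none higher and Lyve1 and Clec4g lower, and the 8 macrophage and immune markers to 280 and 466 against 292 and 405 CPM, with 1 of 7 higher.

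Replicate 2 of R&Z del at CD 4d held the higher sum of each of these lists as well as the higher level of each of the 10 Notch genes. The share of all genes higher in replicate 2 was not computed. Its hepatocyte sum was the lower (74060 against 91106 CPM), and its TMM factor in the fit of CCl4-treated livers the higher (1.42 against 1.27). Dll4, which is known from endothelium, was at 4.53 CPM in that library with an endothelial sum of 374 CPM, and at 1.27 CPM in replicate 1 with a sum of 161 CPM. The part of the other cell types in the levels of the Notch genes was not tested. In RNA of whole liver, a change in the number of cells of a type and a change in RNA per cell cannot be told apart.

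**Figure D3:**
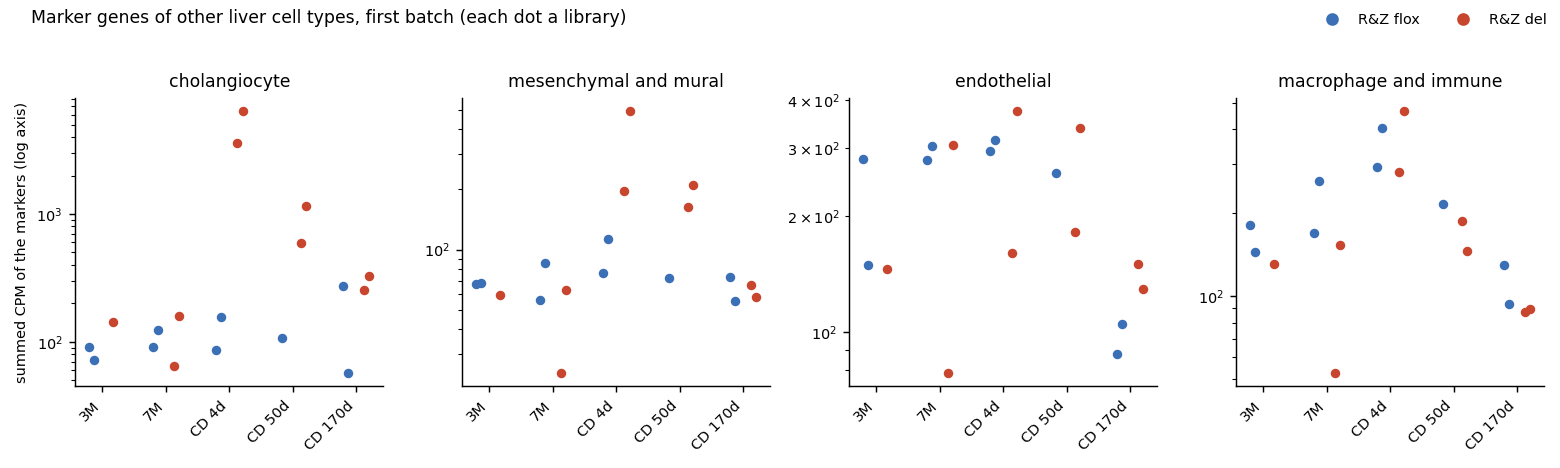
Summed CPM (log axes) of marker genes of 4 liver cell types in each library of the first batch. Cholangiocyte and mesenchymal sums of R&Z del livers at CD 4d (3578 and 6399, and 196 and 493 CPM) lay above those of all R&Z flox livers shown. Endothelial and macrophage sums overlapped between genotypes at CD 4d, but not at every time point.

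Of 42 other genes of the pathway, 5 rose and 1 fell among the 36 tested in R&Z del against R&Z flox livers at CD 4d, a share near the 15.2% of all genes that passed. The most changed were Dtx3, a member of the Deltex family that acts on Notch receptors, at 18 and 20.3 against 2.16 and 2.54 CPM, Sox9, a Notch target of duct cells, at 46.4 and 95.2 against 12.6 and 12.3 CPM, and Id1, an inhibitor of differentiation factors, at 159 and 120 against 16.6 and 34.3 CPM. Their log2 fold changes were 2.53, 1.99 and 1.98, and none overlapped between genotypes. Sox9 is used as a marker of cholangiocytes too, and Id1 is also a target of BMP signalling.

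Against undamaged R&Z del livers, 9 of the 38 other pathway genes tested rose at CD 4d and 1 fell, where 31.4% of all genes passed and 20.2% passed as higher, so that these genes did not stand out by their number. The most changed were Sox9 (log2 fold change 3.94), Dtx3 (3.71) and Dtx4 (2.98). By role, 1 of 2 other ligands and receptors, 2 of 16 genes for the processing of ligands and receptors, 1 of 10 of the nuclear complex, 3 of 8 negative regulators and both other targets tested rose, and 1 negative regulator fell. The genes for processing had a median log2 fold change of 0.04, against 0.08 over all genes tested, and the negative regulators one of 1.20. In R&Z flox livers, 0 of the 38 passed in edgeR's quasi-likelihood test (5.09% of all genes did), with 3 at an unadjusted p under 0.05. The damage effects differed between genotypes for 4 of the 38, namely Dtx3, Sox9, Id1 and Dtx4, a lower share than the 17.2% of all genes. In all other comparisons, 0 of these genes passed.

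**Figure D4:**
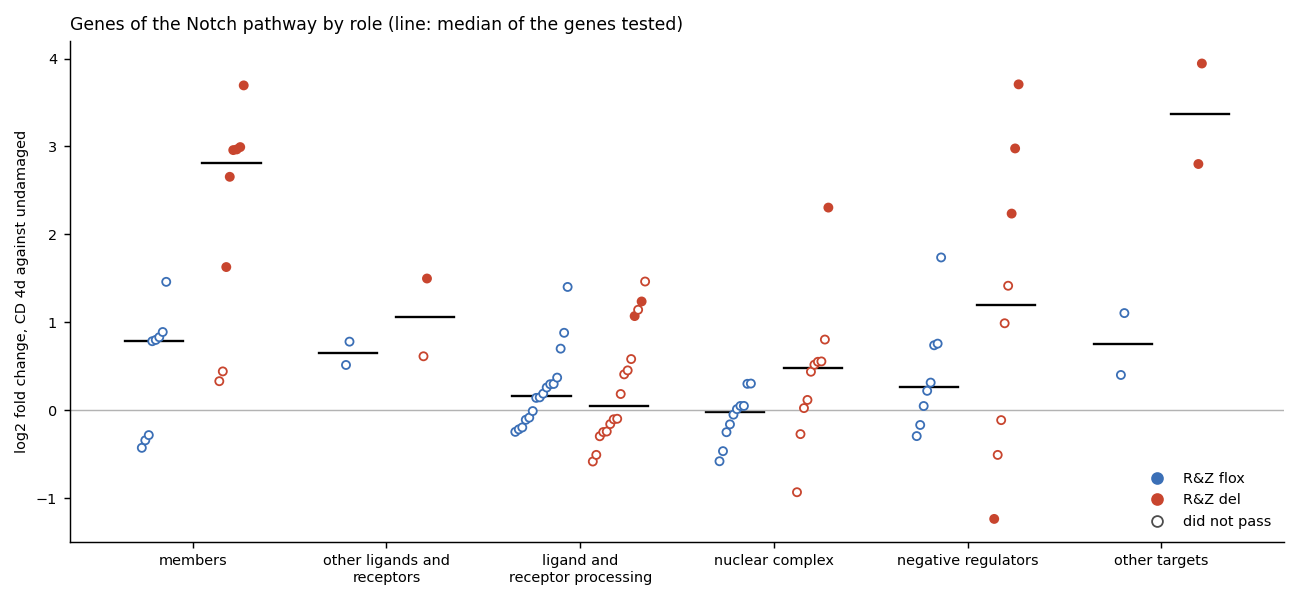
Log2 fold change at CD 4d against undamaged livers (vertical axis) of each Notch pathway gene tested, by role and genotype, with a line at the median and filled points for genes past the threshold. R&Z flox livers have no filled point, and in R&Z del livers the genes for ligand and receptor processing centre near 0 (median 0.04). The line of the 8 members tested in R&Z del livers (2.81) is a description only. It includes Hey1 and Nrarp, which reached the filter only with damaged libraries.

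At CD 50d, Jag1 was at 2.19 and 5.92 CPM in R&Z del livers and 1.52 CPM in the only R&Z flox library, Notch1 at 5.11 and 8.88 against 3.24 CPM, Hes1 at 17.2 and 16.5 against 8.76 CPM, and Heyl at 2.45 and 4.75 against 1.52 CPM. Both R&Z del libraries were above the R&Z flox library for each of these genes, but the share of all genes that did so was not computed. All 6 genes tested had a positive log2 fold change, up to 1.10 for Jag1 (95% interval -0.14 to 2.34). The share of all genes with a positive fold was not computed. None of them passed in edgeR's quasi-likelihood test, where 5.58% of genes did, with Notch1 at an unadjusted p under 0.05 (0.83, adjusted p = 0.214) and none passed by DESeq2 or the likelihood ratio test. The lone R&Z flox library was assumed to vary like the other groups. Cholangiocyte sums were 597 and 1151 CPM against 106 CPM, and mesenchymal sums 163 and 210 against 71.8 CPM. Replicate 2 of R&Z del was the higher for each of Jag1, Jag2, Dll4, Notch1, Notch2, Notch3, Hey1, Heyl and Nrarp, and so for all of the genes but Hes1. The share of all genes higher in this replicate was not computed, and its TMM factor was the higher too (1.22 against 0.939).

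The labels put both R&Z flox libraries of CD 170d at that time, whereas the study's sample list names them under CD 50d as well, so that the comparisons at CD 50d and CD 170d rest on the labels. At CD 170d, R&Z del levels of Jag1, Hes1, Heyl and Notch1 lay within the range of all undamaged livers of the batch. Both R&Z del libraries were, however, above both undamaged R&Z del libraries at 7M for these genes and Nrarp, and overlapped them for the others. The 7M libraries held 0.609 and 1.03 CPM of Jag1 and 10.2 and 5.84 CPM of Hes1. For Heyl they held 0.218 and 0.472 CPM, and for Notch1 2.65 and 2.79 CPM. With 2 libraries in each group, the tests below cannot show a return to undamaged levels. Jag1 was at 2.02 and 1.16 CPM in R&Z del and 1.02 and 0.988 CPM in R&Z flox livers, Hes1 at 11.3 and 17.2 against 13.3 and 24.7 CPM, Heyl at 1.3 and 0.995 against 0.271 and 1.55 CPM, and Notch1 at 3.26 and 4.34 against 1.90 and 2.49 CPM. Jag1 and Notch1 did not overlap between genotypes, with Notch1 at a log2 fold change of 0.59 (95% interval -0.07 to 1.26), and Hes1 and Heyl did. For this time point, the share of all genes without overlap was not computed. In edgeR's quasi-likelihood test, 0 of 6 genes passed between genotypes (0.625% of all genes did) and 0 of 8 against undamaged 7M livers in either genotype (0% of all genes in each), with none at an unadjusted p under 0.05 and none by DESeq2 or the likelihood ratio test. The interaction of genotype and damage at CD 170d gave 0 of 8 as well (0% of all genes), with the same counts by these tests. Without the filter on low counts, Hes1 passed in R&Z flox livers against 7M (log2 fold change 1.21, adjusted p = 0.0266 in edgeR's quasi-likelihood test). This fold is adjusted for sex, and in plain CPM the means ran the other way, with 19.0 CPM at CD 170d and 26.5 CPM at 7M, where the female library held 44.1 and the male library 8.86 CPM. Without a term for sex the fold was -0.17.

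Without damage, none of the 7 genes tested passed between genotypes at 1M, 3M or 7M in edgeR's quasi-likelihood test, where 0.436%, 0.226% and 0.451% of the 12848 genes tested did. At an unadjusted p under 0.05 there were 0, 0 and 2 genes, and DESeq2 and the likelihood ratio test passed 0 at each time point, where DESeq2 gave no adjusted p for Notch1 and Hes1 at 7M. The intervals were wide for low genes. At 1M, Jag1 was at 0.965, 4.18, 6.01 and 1.29 CPM in R&Z del and 4.51, 4.55, 6.01 and 7.24 CPM in R&Z flox livers, with a log2 fold change of -0.97 (95% interval -2.57 to 0.63). Notch1 was at 45.9, 32, 30.2 and 15.6 CPM against 9.15, 16, 12.5 and 26.2 CPM, overlapping through 1 R&Z del library, with a log2 fold change of 0.75 (-0.49 to 1.99). Notch2 had the narrowest interval, with -0.47 (-1.20 to 0.26).

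At 3M, 1 R&Z del library of each batch stood against 5 R&Z flox libraries. Jag1 was at 0.906 CPM against 2.82 and 0.938 CPM in the first batch and at 2.03 CPM against 9.35, 11.7 and 12.4 CPM in the second, below all R&Z flox libraries of its batch in both. How many of all genes lay so was not counted. Its log2 fold change was -2.03 (95% interval -4.22 to 0.16, adjusted p = 0.777 in edgeR's quasi-likelihood test). Notch3 was at 31.2 CPM in 1 R&Z flox library of the second batch and at 0 in the other two, and its log2 fold change of -6.80 had an interval from -14.33 to 0.72.

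At 7M, the genes at an unadjusted p under 0.05 were Hes1, which differed by -1.64 on the log2 scale (SE 0.55, adjusted p = 0.327 in edgeR's quasi-likelihood test), and Notch1, with 1.25 (SE 0.57, adjusted p = 0.520). In the second batch, Hes1 was at 3.15, 6.37 and 3.79 CPM in R&Z del and 19.2, 30.6 and 20.2 CPM in R&Z flox livers, with no overlap and a fold of -2.34 for this batch alone (adjusted p = 0.435). What share of all genes did not overlap here was not computed. In the first batch it was at 10.2 and 5.84 against 8.86 and 44.1 CPM, overlapping, with a fold of -0.20 for this batch alone (adjusted p = 0.999). Notch1 was at 34.6, 17.6 and 61.1 against 18.9, 0.796 and 17.6 CPM in the second batch and at 2.65 and 2.79 against 1.94 and 5.50 CPM in the first, overlapping in both, with folds of 1.80 and 0.42 for each batch alone. Genotype effects did not pass as different between time points for any gene (0 of 7 for 3M against 1M, 7M against 1M and 7M against 3M, with 0%, 0% and 0% of all genes), with 1, 0 and 1 at an unadjusted p under 0.05, Notch1 each time, and 0 by DESeq2 and the likelihood ratio test.

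**Figure D5:**
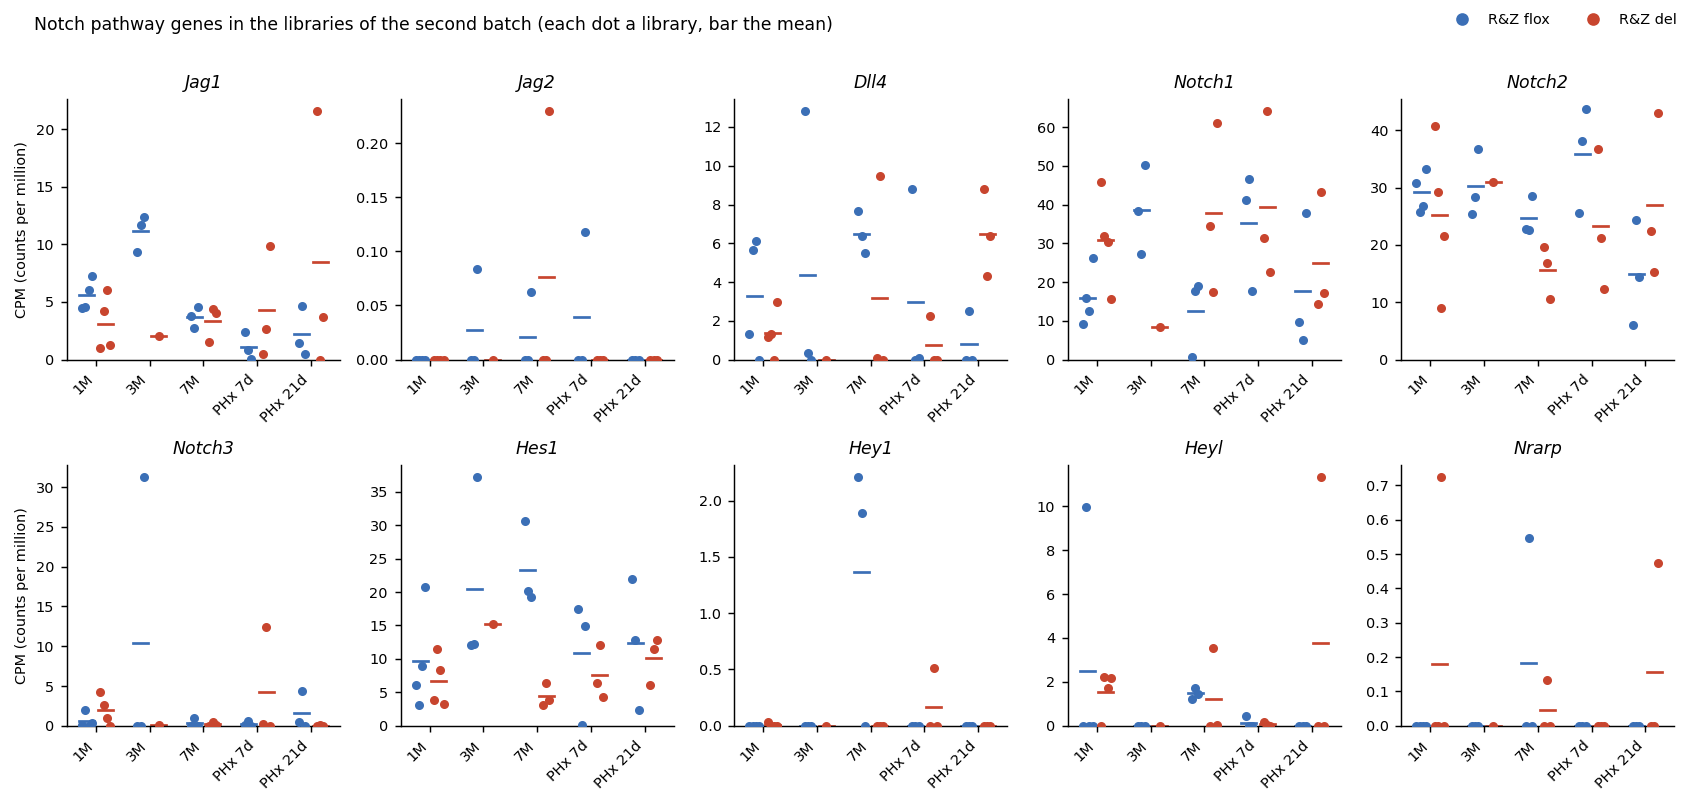
CPM of each gene (linear axis from 0) in the libraries of the second batch, undamaged and after PHx, with each dot a library and each bar the mean of a group. Hes1 at 7M lay between 19.2 and 30.6 CPM in R&Z flox and between 3.15 and 6.37 CPM in R&Z del livers, whereas groups overlapped for most genes after PHx and Jag2, Hey1, Heyl and Nrarp were mostly at 0.

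After PHx, Notch1 was at 31.3, 64.2 and 22.6 CPM in R&Z del and 41.2, 46.6 and 17.7 CPM in R&Z flox livers at 7 days, and at 14.4, 43.3 and 17.3 against 9.82, 5.08 and 37.9 CPM at 21 days. Notch2 was at 36.7, 21.2 and 12.3 against 25.7, 38.1 and 43.6 CPM at 7 days and at 22.4, 15.2 and 43.1 against 6.03, 24.3 and 14.4 CPM at 21 days. The genotypes overlapped for both receptors at both times. Hes1 was at 6.39, 12.1 and 4.29 against 17.4, 0.125 and 15 CPM at 7 days and at 6.05, 11.5 and 12.8 against 21.9, 12.8 and 2.33 CPM at 21 days, also overlapping. Jag1 ranged from 0.469 to 9.83 CPM in R&Z del and from 0.0591 to 2.38 CPM in R&Z flox livers at 7 days, and from 0 to 21.6 and from 0.511 to 4.69 CPM at 21 days.

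The ligand Dll4 was at 8.80, 4.33 and 6.39 CPM in R&Z del and at 0, 2.48 and 0 CPM in R&Z flox livers at PHx 21d, without overlap, with a log2 fold change of 2.88 and an interval from -2.78 to 8.54. A share of all genes without overlap was not computed for PHx. It was at 2.23, 0 and 0 against 8.79, 0 and 0.0591 CPM at PHx 7d. The endothelial sums at 21 days overlapped, with 240 to 521 CPM in R&Z del and 273 to 418 CPM in R&Z flox livers. In edgeR's quasi-likelihood test, 0 of 7 genes passed between genotypes at PHx 7d and 0 of 7 at 21d, where 0.274% and 0.329% of the 12773 genes tested did, with 0 and 1 at an unadjusted p under 0.05. The latter was Heyl, at 11.3 CPM in 1 R&Z del library and 0 in the other 5 libraries. DESeq2 and the likelihood ratio test passed 0.

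Against undamaged 1M livers, 0 of 7 genes passed in R&Z flox (0.0235% of genes at 7 days and 0% at 21 days) and 0 of 7 in R&Z del livers (0.0157% and 0%), and the effects of PHx did not pass as different between genotypes for any of them (0% of genes at both times). At an unadjusted p under 0.05 there was 1 gene over these 6 results, Heyl at 21 days in R&Z flox livers, which was at 0 in all 3 libraries and at 9.94 CPM in 1 of the 4 libraries at 1M. DESeq2 and the likelihood ratio test passed 0. The interval of Notch2, the most evenly read of these genes, ran from -0.49 to 1.67 in R&Z flox and from -0.72 to 1.55 in R&Z del livers at PHx 7d, and that of Hes1 from -1.68 to 3.12 and from -1.57 to 2.89.

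For each gene above the filter in both batches, the genes most like it over libraries were ranked among 12065 by the lower of its Pearson r in the first (18 libraries) and second batch (30 libraries). Jag1 was most like 4632415L05Rik (r = 0.73 and 0.61), Hira and Fyn, Notch1 like Arpp19 (0.72 and 0.62) and Kctd2, and Notch2 like C1galt1 (0.55 and 0.60), Mex3c and Trim13. Dll4 was most like Susd2 (0.61 and 0.58), Oit3 and Tmem204, Heyl like Ms4a6c (0.66 and 0.60), Lyl1 and Kctd12b, and Hes1 like Epha2 (0.61 and 0.53), Id1 (0.84 and 0.49) and Id3. Among the genes themselves, the closest pair in the first batch was Jag1 and Heyl (r = 0.74) and the least alike Dll4 and Notch2 (r = -0.18). These values describe libraries that share batches, groups and depth, and no test was made of them.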

How the data were processed

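RNA of mouse livers with and without the deletion had been sequenced by the Smart-Seq2 protocol as single reads without strand, and the authors deposited raw read counts per gene, made by STAR 2.5.0a and featureCounts (1.5.0-p3 in the first batch, 1.5.0-p1 in the second) on mm10. Reads shared by overlapping or antisense genes cannot be told apart in such counts. Groups followed the labels, by the time point in the characteristics for 2 libraries (replicate 4 of R&Z del at 3M and replicate 5 of R&Z flox at 7M) whose titles name other groups, and sex, batch and mode of deletion the study's sample list. Counts of all genes above 1 CPM in at least 3 libraries (6 in the fit of CCl4-treated livers) were fitted in edgeR 4.0.16 (R 4.3.3, limma 3.58.1) with TMM factors and the two-sided quasi-likelihood test, in 4 fits of 25 (undamaged), 11 (CCl4), 20 (PHx and 1M) and 18 libraries (the first batch), with terms for group and, where both sexes were present, sex, and for batch in undamaged livers. A gene passed at a Benjamini-Hochberg adjusted p under 0.1 over all genes tested with an absolute log2 fold change above 1. Levels are CPM of raw totals. The scripts were tested on simulated data. Named genes were all 10 members, up to 3 other pathway genes that passed in a comparison by size of change, the 3 genes most like each member and the targeted genes, and marker genes named beside a result were chosen after their values were seen, as were the letters CACGTG and CACGCG. The members and lists were chosen with earlier results of these data known. Alternatives were RLE size factors, no filter, DESeq2 1.42.0, the likelihood ratio test, a replicate block, other sets of libraries and each library left out. Of 53 libraries with counts, 5 whose labels conflict entered no group. 1 gene that the naming rule selects is not reported here. No protein or genome sequence was used.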

Additional observations from a re-analysis of the deposited data

Results flagged for a closer look

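The effect of CCl4 at 4 days differed between the genotypes for Jag1, Heyl and Hes1, by 3.42, 3.30 and 1.82 on the log2 scale in the test of the difference itself, with the effect larger in R&Z del livers for each. Within a batch only the 1M groups held 4 libraries, enough to look for a library far from the others, and over the genes with a count this gave 16 sets of 4 libraries, of which 4 were flagged. The rule flags about 5% of sets by chance if values are normally distributed. It always flags a set with 3 libraries at 0, as for Heyl, Hey1 and Nrarp here, so the number flagged cannot be set against 5%. Replicate 2 of R&Z flox held 2.01 CPM of Notch3 and 9.94 CPM of Heyl, while the other 3 libraries held 0 to 0.302 CPM of Notch3 and 0 CPM of Heyl. In R&Z del livers, replicate 1 held 0.0371 CPM of Hey1, which is 1 count against 0 and below the 0.111 CPM that a count of 0 allows in that library, so that it does not set the library apart although it is among the 4, and replicate 3 held 0.723 CPM of Nrarp.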

How the results depend on the processing

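Over 296 recomputed counts of genes that passed, 286 stayed within 1.5 times the reported count, and of 11 single values that passed, 141 recomputed values passed in the same direction, 13 no longer passed and 0 reversed. Of the 20 results with 0 genes, 249 of 253 alternatives also gave 0. The exceptions were an unadjusted p under 0.05 with the fold threshold, which gave 2 genes (Notch1 and Hes1) at 7M and 1 (Heyl) at PHx 21d between genotypes and against 1M in R&Z flox livers, and the lack of a filter, which gave 1 (Hes1) at CD 170d against 7M in R&Z flox livers. Leaving out 1 library gave 1 to 2 genes between genotypes at CD 4d, 3 to 6 at CD 4d against undamaged R&Z del livers and 1 to 3 for the difference of the damage effects. The cause of these losses was not tested. With a replicate block, 2 genes passed between genotypes at CD 4d and 0 in each of the other comparisons it could be fitted for, which CD 4d against undamaged R&Z del livers was not. Same-numbered libraries correlated in their deviations by 0.333 at CD 4d, by -0.357 at CD 170d and by -0.0816 to -0.00235 elsewhere. In the larger groups elsewhere, the numbers showed no pairing of libraries. With 2 libraries in a group the deviations mirror each other, so the values at CD 4d and CD 170d cannot decide whether numbers pair libraries. Crossed numbers at CD 170d gave 0 genes. Counts over all genes moved more, from 1729 to between 813 and 3135 between genotypes at CD 4d, from 3965 to between 2587 and 5525 against undamaged R&Z del livers, from 642 to between 124 and 1298 in R&Z flox livers, from 2173 to between 868 and 3004 for the difference, and from 634 to between 0 and 1671 at CD 50d, with 0 once the 3 libraries with conflicting labels were added. Between genotypes, they ranged from 14 to 302 at 1M (56 reported), 0 to 134 at 3M (29), 14 to 204 at 7M (58), 0 to 600 at CD 170d (71), 10 to 213 at PHx 7d (35) and 19 to 437 at PHx 21d (42). Males alone could not be fitted at 3M or at CD 170d against 7M in R&Z flox livers, nor CD 50d without its only R&Z flox library. Jag2, Notch3, Hey1 and Nrarp were mostly under 1 CPM, where depth limits what these libraries can show.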

Other observations

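In 5 libraries of the first batch whose labels conflict, Jag1 ranged from 0.814 to 2.18 CPM (median 1.63), Notch1 from 2.19 to 5.33 CPM (median 3.33), Notch2 from 6.52 to 10.3 CPM (median 7.47) and Hes1 from 8.28 to 16.6 CPM (median 11.1). Heyl ranged from 1.01 to 2.51 CPM (median 1.18), Hey1 from 0.577 to 1.01 CPM (median 0.699), Nrarp from 0.112 to 1.62 CPM (median 1.11) and Dll4 from 0.758 to 4.89 CPM (median 3.72). Jag2 was at most at 0.349 CPM and Notch3 at most at 0.480 CPM.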
